A study of Mus musculus with 18 samples.

Results

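Mitosis depends on many transcripts that dividing cells switch on late in the cycle. Here 56 genes listed for mitosis and G2/M were followed in bone marrow-derived macrophages (BMDMs) with and without the prolyl endopeptidase Prep. They are the rows of the count table for a fixed list of mitosis and G2/M symbols, 56 of 16314 genes in the table, and all 56 were found and passed the filter on low counts. The list was drawn up by function, with earlier results of these data known, and its rule uses no measured value. It holds the cyclins, phosphatases and kinases of mitotic entry, the spindle checkpoint, the chromosomal passenger complex, centromere and kinetochore proteins, mitotic kinesins, cytokinesis proteins, condensins and other chromosome proteins, and the transcription factors Foxm1 and Mybl2.

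BMDMs came from global Prep-/- mice and from Prep+/- littermates, both C57BL6/J, and were cultured for 7 days in M-CSF at 50 ng/ml. Cells then stayed untreated (M0), received LPS at 50 ng/ml for 24 h (M1), or received IL-4 and IL-13, each at 20 ng/ml, for 24 h (M2). Each of the 6 groups had 3 libraries of poly(A) RNA, 18 in all. The controls lacked 1 Prep allele, and wild-type cells were not part of the comparison. Age and sex of the donors were not given in the sources used here. Replicates were called biological without a statement that each was a separate animal, so p-values measure the spread between these samples.

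Library totals ran from 19068237 to 22598279 counts, and the 56 genes held between 0.0543% and 0.819% of them. Prep stood at 26.0 to 42.5 CPM (counts scaled to the TMM-adjusted size of their library) in the Prep+/- libraries and at 1.48 to 3.22 CPM in the Prep-/- libraries, so every library followed its label. All 12 macrophage markers examined, among them Adgre1 and Csf1r, were detected in every group. Replicates of the Prep+/- groups lay close together, with a median coefficient of variation over the 56 genes of 6.73% in M0, 11% in M1 and 5.13% in M2. Those of the Prep-/- groups lay further apart, at 41.1%, 21.4% and 35.3%. Prep-/- M0 replicate 1 was the lowest of its group for 54 of the 56 genes, and Prep-/- M2 replicate 2 was the highest of its group for 53.

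As background, a cell enters mitosis when Cdk1 with cyclin B is released from inhibitory phosphates by the Cdc25 phosphatases. Polo and Aurora kinases and the kinesins build the spindle, the checkpoint blocks the anaphase-promoting complex until kinetochores are attached, and Cdc20 then directs that complex against securin and cyclin B. Many of these genes share a short promoter element, the cell cycle genes homology region (CHR), often near CCAAT boxes bound by NF-Y. The DREAM complex represses them through the CHR in resting cells, and MuvB with Mybl2 and Foxm1 activates them in G2. BMDMs divide in response to M-CSF.

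The shared elements could be read in the promoters. RefSeq windows from 250 bases before to 50 bases after the annotated start, on GRCm38.p6, covered 47 of the 56 genes. Where a gene had several listed starts, the first was used. Aurkb, Ccna2, Cdc25c, Foxm1, Incenp, Kif20a, Smc4, Spc24 and Tpx2 had no window. A CHR, searched as TTTGAA or TTCGAA on both strands, was in 36 of the 47 windows (76.6%), against 14% of the 9681 windows of tested genes and 19.4% of all 27025 windows. Counting matches that began at most 50 bases before the start or after it, the shares were 70.2% for the members and 3.59% for tested genes. A CCAAT box, searched as CCAAT on both strands, was in 72.3% against 39.2%, and a CHR with a CCAAT box in 66% against 6.14%. An E2F site, searched as TTTCCCGC, TTTCGCGC, TTTGGCGC or TTTGCCGC on both strands, was in 8.51% against 4.2%. TTCGAA is its own reverse complement, and none of the CHR, CCAAT and E2F words contains another. A match is a description of letters and not a mapped site.

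**Figure D1:**
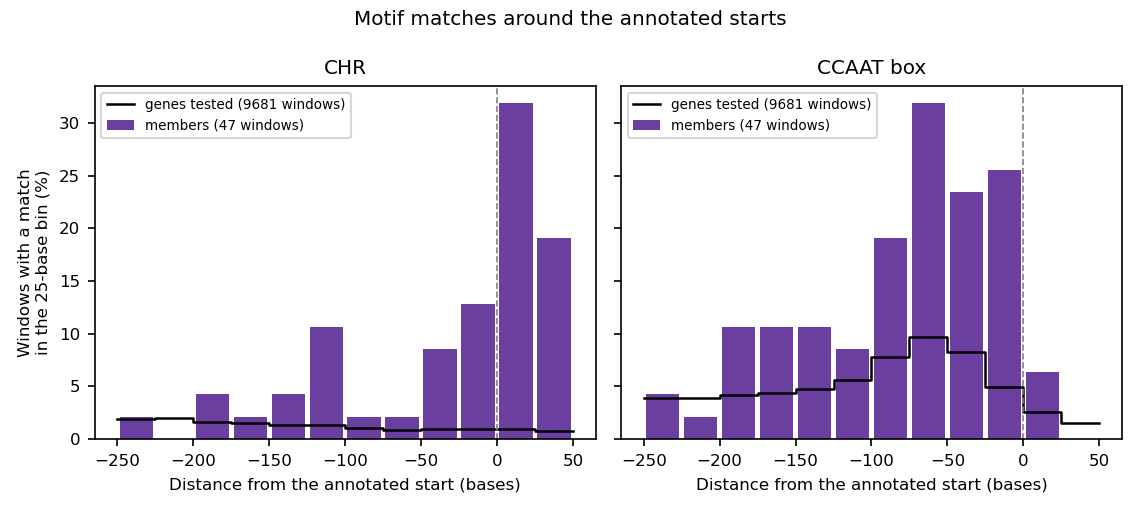
Share of promoter windows (y axis, %) with a match in each 25-base bin, against distance from the annotated start (x axis, bases), for the CHR (left) and the CCAAT box (right); bars are the 47 members' windows and the black line is the 9681 windows of tested genes. CHR matches of the members peak in the first 25 bases after the start, at 31.9% against 0.992%, and CCAAT boxes peak upstream, at 31.9% against 9.72%.

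The promoters of 6 members show how the elements are arranged. Ccnb2, Cdc20, Kif23 and Top2a are shown because they carry a CHR beside CCAAT boxes, and Mybl2 and Pttg1 because they carry neither and were at the edges of the set, Mybl2 with the largest genotype difference and Pttg1 with a rise after LPS. Each line runs 5′ to 3′ on the gene's strand, from 150 bases before to 30 bases after the annotated start, with CHR and CCAAT matches on either strand in capitals (TTCAAA and ATTGG are the reverse complements of TTTGAA and CCAAT). The stretches lie on GRCm38.p6 at chr9:70421525-70421704 (minus strand) for Ccnb2, chr4:118437314-118437493 (minus strand) for Cdc20, chr9:61946770-61946949 (minus strand) for Kif23, chr11:99024160-99024339 (minus strand) for Top2a, chr2:163054485-163054664 (plus strand) for Mybl2 and chr11:43425952-43426131 (minus strand) for Pttg1.
Ccnb2: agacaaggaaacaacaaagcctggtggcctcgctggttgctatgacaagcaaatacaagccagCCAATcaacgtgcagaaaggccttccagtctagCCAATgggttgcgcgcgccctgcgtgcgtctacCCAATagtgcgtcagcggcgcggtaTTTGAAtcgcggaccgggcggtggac
Cdc20: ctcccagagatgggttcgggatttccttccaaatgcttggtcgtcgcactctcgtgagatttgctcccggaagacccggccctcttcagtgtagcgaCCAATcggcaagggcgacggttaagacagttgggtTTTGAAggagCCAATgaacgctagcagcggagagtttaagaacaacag
Kif23: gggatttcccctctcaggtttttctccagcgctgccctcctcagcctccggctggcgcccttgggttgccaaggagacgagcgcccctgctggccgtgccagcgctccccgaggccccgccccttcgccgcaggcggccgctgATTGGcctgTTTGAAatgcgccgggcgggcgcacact
Top2a: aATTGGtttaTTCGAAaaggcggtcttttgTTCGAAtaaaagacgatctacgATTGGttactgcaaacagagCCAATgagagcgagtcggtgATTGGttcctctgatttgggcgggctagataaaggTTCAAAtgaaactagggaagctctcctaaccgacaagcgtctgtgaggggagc
Mybl2: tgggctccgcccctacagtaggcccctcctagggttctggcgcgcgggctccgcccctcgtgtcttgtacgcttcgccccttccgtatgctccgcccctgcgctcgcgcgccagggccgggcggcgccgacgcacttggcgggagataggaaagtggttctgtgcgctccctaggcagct
Pttg1: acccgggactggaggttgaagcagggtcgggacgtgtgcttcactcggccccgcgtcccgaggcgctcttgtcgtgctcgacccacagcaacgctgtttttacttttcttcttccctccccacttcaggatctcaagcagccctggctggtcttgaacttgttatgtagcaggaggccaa
The Ccnb2 stretch held 3 CCAAT boxes and 1 CHR, the Cdc20 stretch 2 and 1, the Kif23 stretch 1 and 1, and the Top2a stretch 4 and 3. Over the whole window, Birc5, Mad2l1, Mybl2, Ncaph, Nuf2, Nusap1, Plk4 and Pttg1 had neither element. Absence of a match says only that these letters are not in this window, and other starts of these genes were not searched.

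All 56 genes are protein-coding and lie on 16 mouse chromosomes, with 10 on chromosome 2. On GRCm39, Cdk1 lies at chr10:69170976-69236595 (minus strand), Mki67 at chr7:135291513-135318299 (minus strand), Top2a at chr11:98883769-98915062 (minus strand) and Mybl2 at chr2:162896435-162926614 (plus strand). A gene on the opposite strand overlapped 38 of the members and a gene on the same strand 14, and the strand setting of the counting was not given in the sources used here. For 20 members, a transcript of another gene matched at least 200 bases at 90% identity or more, and for 14 of those the copy is annotated as a pseudogene, so their counts are less certain. Ccnb1-ps, the copy of Ccnb1, was the pseudogene copy with a row of its own in the table.

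Summed over the 56 genes, the level differed widely between the groups. The Prep+/- M0 libraries held 6697, 6665 and 6850 CPM and the Prep-/- M0 libraries 1561, 3151 and 3234. The Prep+/- M2 libraries held 4759, 4862 and 4687 CPM and the Prep-/- M2 libraries 1624, 2617 and 1541. The Prep+/- M1 libraries held 877.5, 855.4 and 872.2 CPM and the Prep-/- M1 libraries 638.0, 702.6 and 646.5. The order from high to low was thus Prep+/- M0, Prep+/- M2, Prep-/- M0, Prep-/- M2, Prep+/- M1 and Prep-/- M1, and the sole neighbours whose libraries overlapped were Prep-/- M0 and Prep-/- M2. Relative to Prep+/- M0, the mean was 70.8% in Prep+/- M2, 39.3% in Prep-/- M0, 28.6% in Prep-/- M2, 12.9% in Prep+/- M1 and 9.83% in Prep-/- M1. In bulk RNA, fewer cycling cells and less of these transcripts per cell cannot be told apart.

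**Figure D2:**
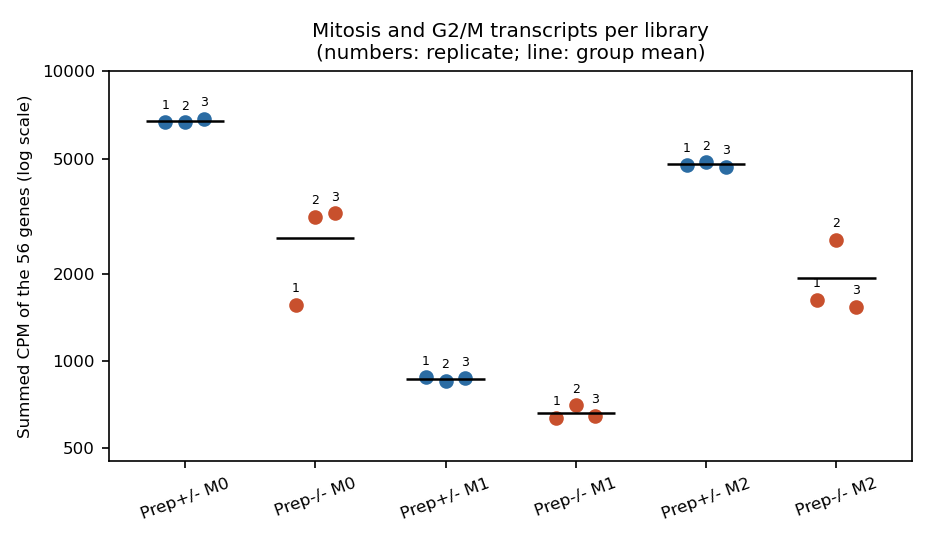
Summed CPM of the 56 mitosis and G2/M genes (y axis, log scale) in each library, by group (x axis); points are libraries with their replicate number and lines are means of 3. The Prep+/- libraries lie close together in each state, and Prep-/- M0 replicate 1, at 1561, lies far below replicates 2 and 3.

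Single genes kept close to this order. Prep+/- M0 had the highest group mean for 54 genes, with Cenpa highest in Prep-/- M0 and Pttg1 highest in Prep-/- M1, and Prep-/- M1 had the lowest group mean for 48. Over the 18 libraries, the Pearson r of a member's log2 CPM with the mean of the other members had a median of 0.975 and was over 0.9 for 50 of the 56. Racgap1, a cytokinesis protein, had the highest r at 0.997, and Pttg1 the lowest at -0.701, followed by Plk4 at 0.693 and Mybl2 at 0.719. These r values describe libraries that share 6 groups. Per kilobase of annotated exon in Prep+/- M0, levels ran from 3.01 CPM per kb for Cenpk to 72.3 for Ccna2, with a median of 14.9.

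**Figure D3:**
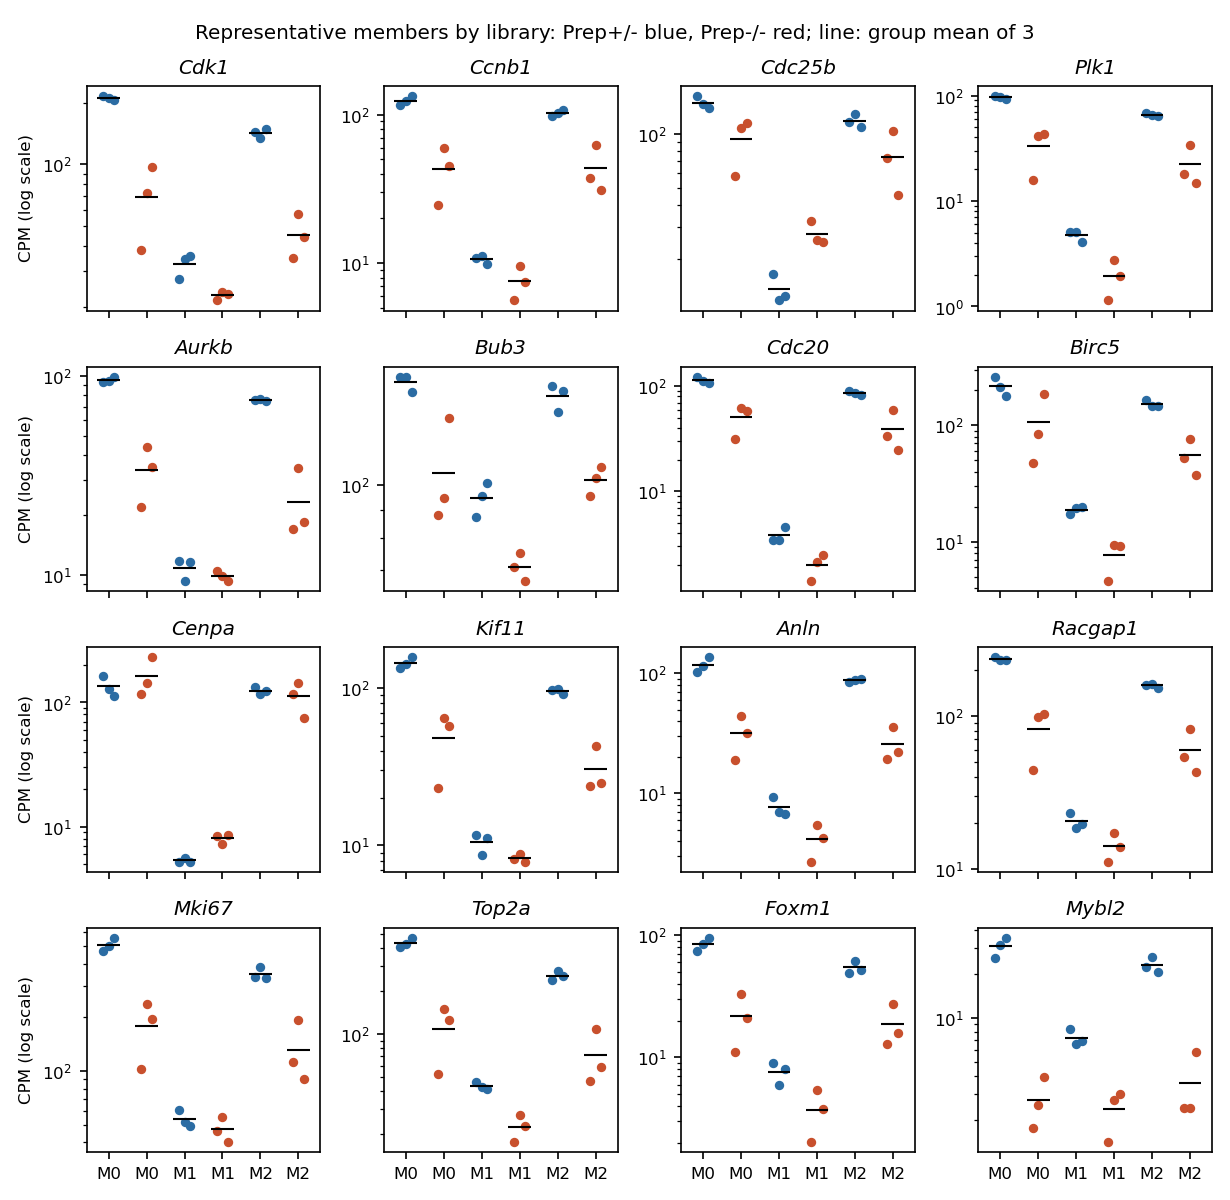
CPM (y axis, log scale) of 16 representative members in each library, with Prep+/- in blue, Prep-/- in red and the mean of 3 as a line, by state (x axis). In M0 and M2 the Prep-/- libraries lie below the Prep+/- libraries for all but Cenpa and, in M0, Birc5; M1 libraries are the lowest for most genes.

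The first question was whether untreated macrophages without Prep differed in these genes. In M0, 52 of the 56 genes were lower in Prep-/- than in Prep+/- and none was higher (edgeR's quasi-likelihood test with Benjamini-Hochberg adjustment over 12021 genes, adjusted p under 0.05 and fold change over 1.5), where 17.2% of all tested genes were lower and 15.4% higher. The median log2 fold change of the 56 was -1.53, beside 0.02 over all tested genes. For the count of 0 higher, edgeR at an unadjusted p under 0.05 and DESeq2 also gave 0. In 53 genes every Prep-/- library lay below every Prep+/- library, as did 27.1% of tested genes, and Pttg1, Birc5 and Cenpa overlapped. By role, 5 of 6 entry genes, 6 of 6 kinases, 6 of 8 checkpoint and anaphase genes, 3 of 3 passenger complex genes, 7 of 8 kinetochore genes, 12 of 12 kinesins and spindle proteins, 3 of 3 cytokinesis genes, 7 of 7 chromosome structure genes and 3 of 3 transcription factors and others were lower.

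Among the entry genes, Cdk1, the kinase that starts mitosis, stood at 215, 210 and 207 CPM in Prep+/- M0 and at 38.3, 72.1 and 96.9 in Prep-/- M0. The groups were far apart, and the difference was called (log2 fold change -1.61, SE 0.24, adjusted p = 4.94e-05). Ccnb1, its cyclin partner, stood at 116, 123 and 133 against 24.6, 59.2 and 45.2 CPM (log2 fold change -1.53, SE 0.27, adjusted p = 2.38e-04). Cdc25b, the phosphatase that helps to activate Cdk1, differed least of the called members, at 162, 146 and 139 against 58.0, 107 and 115 CPM (log2 fold change -0.67, SE 0.25, adjusted p = 0.0367). That call did not hold without Prep+/- M0 replicate 1, Prep+/- M0 replicate 2 or Prep-/- M0 replicate 1.

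Kinases and passenger complex genes were lower too. Plk1, the polo kinase, stood at 98.5, 96.7 and 93.5 against 15.7, 41.0 and 43.5 CPM (log2 fold change -1.52, SE 0.32, adjusted p = 0.00101). Aurkb, the Aurora kinase of the passenger complex, stood at 93.3, 94.5 and 99.0 against 21.9, 43.9 and 34.8 CPM (log2 fold change -1.51, SE 0.23, adjusted p = 7.51e-05). In both genes replicate 1 was the lowest Prep-/- library and no library overlapped. Birc5, the survivin subunit of that complex, stood at 262, 212 and 179 against 47.2, 85.0 and 187 CPM, so that Prep-/- replicate 3 lay above Prep+/- replicate 3 (log2 fold change -1.03, SE 0.37, adjusted p = 0.0279). The Birc5 call was lost in 4 of the 6 analyses that left out a library, those without Prep+/- M0 replicate 1 or 2 or Prep-/- M0 replicate 1 or 2.

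The genes of spindle, anaphase and cytokinesis followed the same direction. Cdc20, which activates the anaphase-promoting complex, stood at 123, 111 and 107 against 31.7, 62.1 and 58.4 CPM (log2 fold change -1.16, SE 0.26, adjusted p = 0.00176). Kif11, the kinesin that separates the spindle poles, stood at 135, 143 and 157 against 23.2, 64.6 and 57.9 CPM (log2 fold change -1.57, SE 0.28, adjusted p = 2.37e-04). All Prep-/- libraries of both genes lay below all Prep+/- libraries. Racgap1, part of the centralspindlin complex, stood at 241, 231 and 233 against 44.3, 98.0 and 103 CPM (log2 fold change -1.52, SE 0.26, adjusted p = 1.90e-04). Anln, a scaffold of the contractile ring, stood at 102, 115 and 136 against 19, 44.1 and 31.6 CPM (log2 fold change -1.90, SE 0.28, adjusted p = 4.43e-05). Neither gene had overlapping groups.

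The 7 chromosome structure genes had a median log2 fold change of -1.80 and the 3 transcription factors and others one of -1.96. Mki67, the Ki-67 protein of the mitotic chromosome surface, stood at 469, 502 and 557 against 103, 238 and 195 CPM (log2 fold change -1.51, SE 0.27, adjusted p = 2.52e-04). Top2a, the topoisomerase that resolves sister chromatids, stood at 405, 425 and 468 against 52.9, 150 and 125 CPM (log2 fold change -1.98, SE 0.31, adjusted p = 9.31e-05). Top2a was among the 3 largest falls, with Spc25 and Mybl2. Spc25, a subunit of the Ndc80 kinetochore complex, stood at 103, 96.3 and 93.2 against 7.92, 21.9 and 36.9 CPM (log2 fold change -2.13, SE 0.33, adjusted p = 7.92e-05). Mybl2, the MYB factor that joins MuvB, stood at 25.5, 31.6 and 35.2 against 1.75, 2.51 and 3.92 CPM (log2 fold change -3.49, SE 0.34, adjusted p = 1.42e-06), the largest difference of the 56. Foxm1, the forkhead factor that follows it, stood at 74.7, 84.7 and 94.6 against 11, 33.0 and 21.1 CPM (log2 fold change -1.96, SE 0.34, adjusted p = 2.28e-04). Both factors had groups that were well apart.

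The 4 genes not called in M0 were Ccnb2, Bub3, Pttg1 and Cenpa, and they were not called between the genotypes in M1 or M2 either. Cenpa, the centromeric histone H3 variant, stood at 163, 129 and 113 against 118, 143 and 231 CPM (log2 fold change 0.28, SE 0.23, adjusted p = 0.324). Pttg1, the securin, stood at 33.9, 29.7 and 22 against 39.2, 25 and 51.9 CPM (log2 fold change 0.44, SE 0.23, adjusted p = 0.130). The groups overlapped for both. Bub3, a checkpoint protein, passed the p but not the fold, at 158, 158 and 148 against 88.0, 94.9 and 133 CPM (log2 fold change -0.55, SE 0.13, adjusted p = 0.00175). Ccnb2, another B-type cyclin, did not overlap between the groups, at 148, 140 and 133 against 47.5, 102 and 106 CPM (log2 fold change -0.72, SE 0.29, adjusted p = 0.0537). Of 14 alternatives in M0, Ccnb2 was called in 4, Bub3 in 2, Pttg1 in 1 and Cenpa in 0.

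Without Prep-/- M0 replicate 1 the median log2 fold change in M0 was -1.24, and the count of lower genes ran from 50 to 54 as each library was left out. Some markers of other cells moved with the genotype. The 5 haematopoietic progenitor markers summed to 10.3 to 15.9 CPM in Prep+/- M0 and to 1.66 to 2.21 CPM in Prep-/- M0, none of them at 0, and nearly all of it was Cd34, the sole marker tested (log2 fold change -3.01, SE 0.27, adjusted p = 7.91e-07), while Kit averaged 0.0799 and 0.0154 CPM. The 8 granulocyte precursor markers summed to 17.3 to 22.3 CPM and to 36.1 to 84.6 CPM, with none at 0 and with Elane and Mpo below 1 CPM. Of 5 T cell markers 2 were in the table, and they summed to 0.750 to 0.962 CPM and to 7.84 to 29.6 CPM, all of it Cd4 in Prep-/- M0, where Cd3d was at 0. Of 5 B cell markers 3 were in the table, and they summed to 3.01 to 4.78 CPM and to 8.66 to 11.5 CPM, with Cd79a and Ms4a1 at 0 in Prep-/- M0. The 12 macrophage markers summed to 20300 to 23700 CPM and to 31400 to 49500 CPM, most of it Lyz2, with means of 17100 and 32300 CPM. Of the 12 markers, 7 were called higher and 1, Msr1, was called lower (log2 fold change -2.30, SE 0.19, adjusted p = 4.70e-07). The part of these in the differences was not tested.

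**Figure D4:**
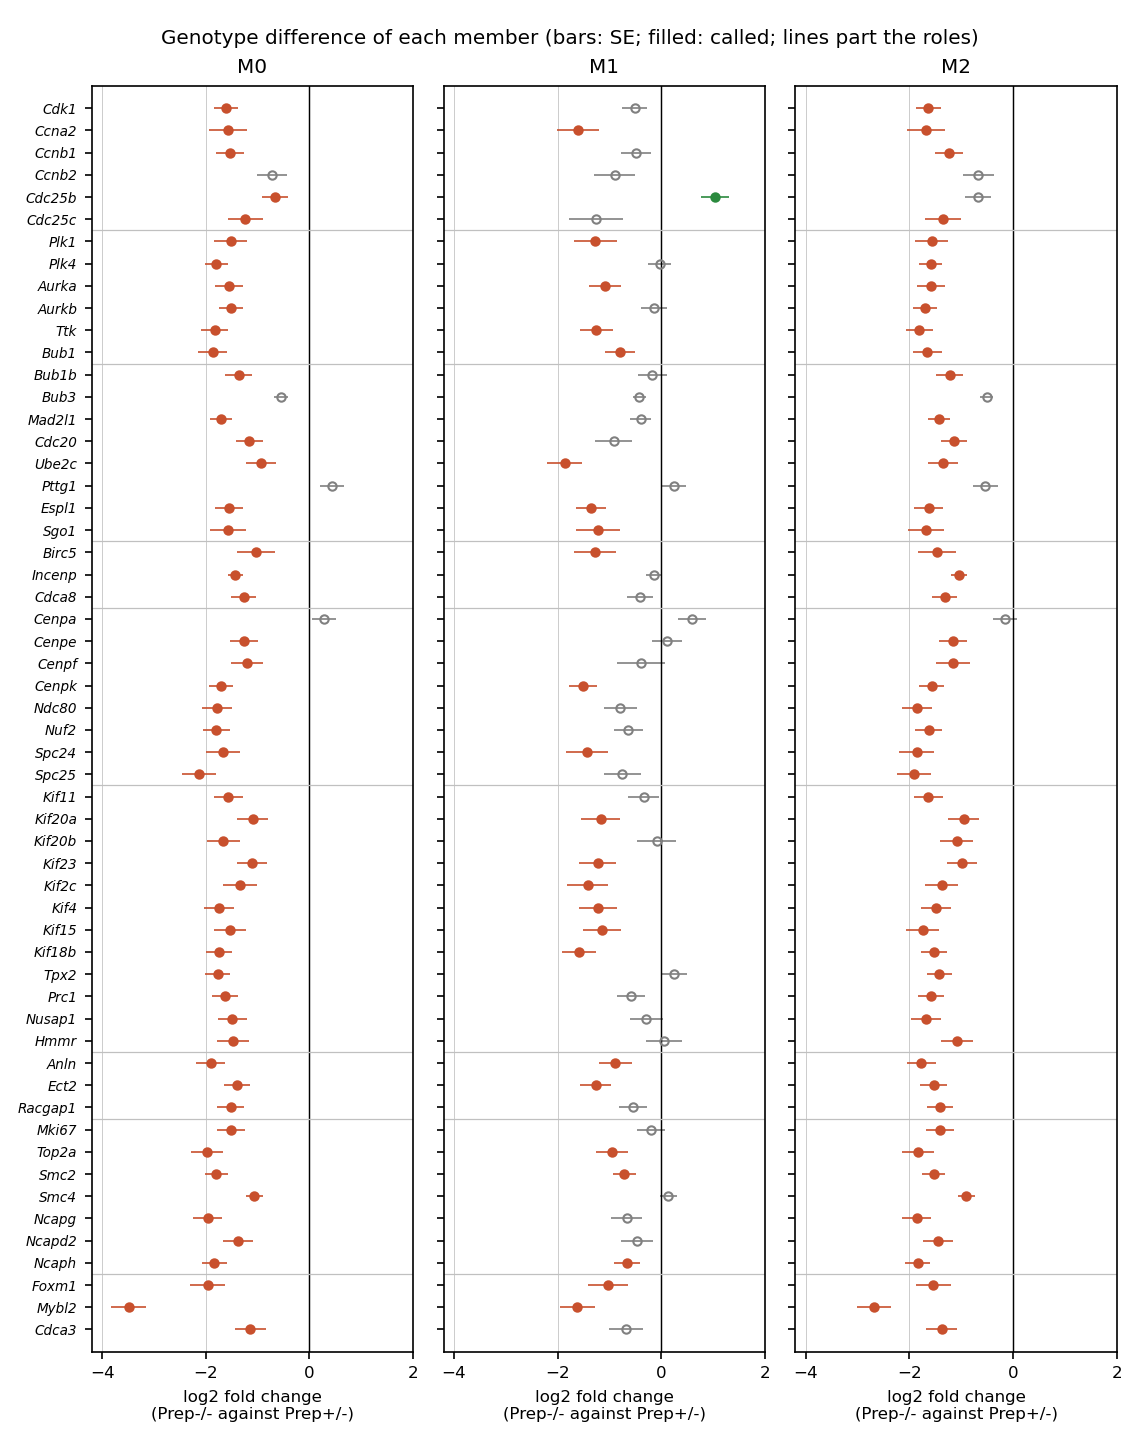
Log2 fold change of Prep-/- against Prep+/- (x axis) for each of the 56 genes (y axis, in blocks by role) in M0, M1 and M2; points are estimates from 3 against 3 libraries, bars are SE, filled points are called and open points are not. Genes cluster around the medians of -1.53 in M0 and -1.50 in M2, and in M1 they spread from -1.86 (Ube2c) to 1.03 (Cdc25b).

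The same comparison in M2 gave 51 genes lower and none higher, where 9.82% of tested genes were lower and 6.37% higher. The median log2 fold change was -1.50, beside 0.03 over all tested genes. For the count of 0 higher, edgeR at an unadjusted p under 0.05 and DESeq2 also gave 0. All libraries were apart for 55 genes, as for 20.9% of tested genes in this direction (21.2% in the other), and Cenpa overlapped. All 51 were also lower in M0, and Cdc25b was lower in M0 without being called in M2 (log2 fold change -0.68, SE 0.25, adjusted p = 0.0621). With a replicate block on these groups alone Cdc25b was called (log2 fold change -0.75, adjusted p = 0.0266), as it was by DESeq2 (-0.66, adjusted p = 0.0476) and without Prep-/- M2 replicate 2 (-0.98, adjusted p = 0.0152). Left-out libraries gave 45 to 53 lower genes.

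Mybl2 again differed most, at 22.4, 26.1 and 20.7 CPM in Prep+/- M2 and 2.41, 2.40 and 5.85 in Prep-/- M2 (log2 fold change -2.69, SE 0.33, adjusted p = 3.79e-05). It was followed by Spc25, at 76.1, 63.9 and 73.6 against 15.4, 22.3 and 18.9 CPM (log2 fold change -1.91, SE 0.33, adjusted p = 5.27e-04), and by its complex partner Spc24, at 21.6, 20.9 and 23 against 5.08, 7.85 and 5.08 CPM (log2 fold change -1.86, SE 0.34, adjusted p = 8.80e-04). Spc24 was barely ahead of the genes after it, with a chromosome structure gene also at -1.86 and Top2a at -1.84.

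The representatives of the other roles were close to their M0 differences. Cdk1 stood at 143, 134 and 148 against 34.7, 57.3 and 43.9 CPM (log2 fold change -1.64, SE 0.24, adjusted p = 1.36e-04). Mki67 stood at 336, 382 and 331 against 113, 193 and 90 CPM (log2 fold change -1.41, SE 0.27, adjusted p = 0.00112). Plk1 stood at 68.1, 65.6 and 64.2 against 18.1, 34.0 and 14.8 CPM (log2 fold change -1.57, SE 0.32, adjusted p = 0.00217). Prep-/- M2 replicate 2 was the highest Prep-/- library in all 3 of these genes and still lay below every Prep+/- M2 library. Aurkb and Top2a had log2 fold changes of -1.70 (SE 0.24) and -1.84 (SE 0.31), Cdc20 of -1.14 (SE 0.26) and Foxm1 of -1.54 (SE 0.34). Cenpa stood at 133, 118 and 123 against 118, 144 and 74.5 CPM (log2 fold change -0.16, SE 0.23, adjusted p = 0.655), and Pttg1 at 36.5, 25.5 and 25.1 against 20.5, 21.9 and 17.7 CPM (log2 fold change -0.54, SE 0.24, adjusted p = 0.110). Progenitor markers summed to 5.88 to 6.29 CPM in Prep+/- M2, with Flt3 at 0, and to 0.704 to 1.63 CPM in Prep-/- M2, with Cd34 at a log2 fold change of -3.40 (SE 0.31). T cell markers summed to 0.170 to 0.461 CPM in Prep+/- M2, with Cd3d at 0, and to 1.55 to 2.46 CPM in Prep-/- M2, with Cd4 at a log2 fold change of 2.54 (SE 0.51, adjusted p = 0.00170). Granulocyte precursor markers summed to 11 to 13.0 against 14.4 to 22.6 CPM, with none called, and B cell markers to 1.56 to 2.81 against 0.958 to 4.45 CPM, with Ms4a1 at 0 in both. Macrophage markers summed to 11400 to 13500 against 15300 to 20800 CPM, with 2 called higher and 1, Msr1, called lower (log2 fold change -1.53, SE 0.19). The part of these markers in the difference was not tested.

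The difference between the genotype effects in M2 and M0 was tested directly. It was called for no gene in either direction by edgeR, where 4.48% of tested genes were called lower and 5.16% higher. At an unadjusted p under 0.05 edgeR gave 1 lower and 0 higher, and DESeq2 likewise gave 1 lower and 0 higher. The differences between the log2 fold changes had a median of 0.04, ran from -0.97 (Pttg1) to 0.80 (Mybl2) and had a median SE of 0.38. Without Prep-/- M0 replicate 2, 1 gene was called in each direction.

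After LPS the genotypes stood closer together. In M1, 24 of the 56 genes were lower in Prep-/- and 1, Cdc25b, was higher, where 10.2% of tested genes were lower and 12.3% higher, and the median log2 fold change was -0.70, beside 0.04 over all tested genes. The 24 were Ccna2, Plk1, Aurka, Ttk, Bub1, Ube2c, Espl1, Sgo1, Birc5, Cenpk, Spc24, Kif20a, Kif23, Kif2c, Kif4, Kif15, Kif18b, Anln, Ect2, Top2a, Smc2, Ncaph, Foxm1 and Mybl2, and all of them were lower in M0 and M2 as well. Their median log2 fold changes were -1.62 in M0, -1.24 in M1 and -1.58 in M2. Another 27 genes were lower in M0 and M2 and not called in M1, with medians of -1.51, -0.40 and -1.41. The call in M1 made this split, so the M1 medians of both sets follow from it and are a description. All libraries were apart for 40 genes downward and 2 upward, as for 27.1% and 29.8% of tested genes.

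The count of 24 rested on single libraries. It was 8 without Prep-/- M1 replicate 1, which was the lowest of its group for 38 genes, and 15 without Prep-/- M1 replicate 3. It was 14 without Prep+/- M1 replicate 1, 13 without Prep+/- M1 replicate 2 and 15 without Prep+/- M1 replicate 3, and it stayed at 24 without Prep-/- M1 replicate 2. DESeq2 gave 30 lower and 1 higher, and a test against a fold change of 1.5 gave 5 lower and 0 higher. Counts were low in this state, down to 8 for Cdc25c in a Prep-/- M1 library, and 4 genes had a Prep-/- M1 library with under 20 counts.

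Ube2c, the ubiquitin-conjugating enzyme of the anaphase-promoting complex, differed most in M1, at 10.8, 12.7 and 14.2 CPM in Prep+/- and 2.18, 3.58 and 4.58 in Prep-/- (log2 fold change -1.86, SE 0.34, adjusted p = 8.94e-04). Mybl2 stood at 8.34, 6.58 and 6.97 against 1.40, 2.72 and 3.0 CPM (log2 fold change -1.62, SE 0.34, adjusted p = 0.00230). Ccna2, cyclin A, stood at 20.6, 24.1 and 22.8 against 2.86, 10.1 and 9.11 CPM (log2 fold change -1.61, SE 0.40, adjusted p = 0.00592). In all of these replicate 1 was the lowest Prep-/- library and the groups did not overlap. Plk1 stood at 5.06, 5.06 and 4.06 against 1.14, 2.77 and 1.93 CPM (log2 fold change -1.27, SE 0.42, adjusted p = 0.0261), and Birc5 at 17.1, 19.3 and 19.8 against 4.57, 9.28 and 9.21 CPM (log2 fold change -1.28, SE 0.40, adjusted p = 0.0206). Top2a (log2 fold change -0.95, SE 0.31, adjusted p = 0.0270), Anln (log2 fold change -0.89, SE 0.32, adjusted p = 0.0369) and Foxm1 (log2 fold change -1.03, SE 0.39, adjusted p = 0.0497) were called close to the threshold, and each call was lost without any 1 of Prep+/- M1 replicates 1, 2 and 3 and Prep-/- M1 replicates 1 and 3. The Plk1 call was lost without Prep+/- M1 replicate 1 or 2 or Prep-/- M1 replicate 1 or 3, and the Birc5 call without Prep+/- M1 replicate 2 or 3 or Prep-/- M1 replicate 1.

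Cdc25b was the gene called higher in Prep-/- M1, at 32.4, 25.5 and 24.7 CPM against 16.4, 11.7 and 12.4 in Prep+/- M1 (log2 fold change 1.03, SE 0.27, adjusted p = 0.00803). Its libraries did not overlap, and the call held in all 6 analyses that left out a library. Cenpa also had libraries apart upward and was not called, at 8.42, 7.16 and 8.50 against 5.22, 5.56 and 5.21 CPM (log2 fold change 0.59, adjusted p = 0.0930). Several other genes had overlapping groups. Mki67 stood at 60.5, 52.0 and 49.4 against 46.5, 55.3 and 40.1 CPM (log2 fold change -0.19, SE 0.27, adjusted p = 0.600). Tpx2, which brings Aurora A to the spindle, stood at 22.8, 19 and 18.5 against 29.3, 19.4 and 22.7 CPM (log2 fold change 0.24, SE 0.25, adjusted p = 0.462). Plk4, the kinase of centriole duplication, stood at 12.1, 10.4 and 10.4 against 12.0, 9.98 and 10.2 CPM (log2 fold change -0.03, SE 0.22, adjusted p = 0.919). These values sat at nearly the same level in both genotypes. Aurkb (log2 fold change -0.14, SE 0.25, adjusted p = 0.693) and Hmmr, a spindle-associated protein (log2 fold change 0.05, SE 0.35, adjusted p = 0.925), overlapped as well. Cdk1 (log2 fold change -0.51, SE 0.24, adjusted p = 0.108), Ccnb1 (log2 fold change -0.49, SE 0.29, adjusted p = 0.203), Cdc20 (log2 fold change -0.92, SE 0.36, adjusted p = 0.0541) and Ccnb2 (log2 fold change -0.90, SE 0.40, adjusted p = 0.0901) had libraries apart and were not called. Of 14 alternatives, Cdc20 was called in 4 and Ccnb2 in 3, DESeq2 among them for both, and Cdk1 and Ccnb1 in 0. Progenitor markers summed to 0.969 to 1.52 CPM in Prep+/- M1 and to 0.208 to 0.509 CPM in Prep-/- M1, with Flt3 at 0 in both and Cd34 at a log2 fold change of -2.13 (SE 0.41, adjusted p = 0.00125). The progenitor sums did not overlap. B cell markers summed to 2.06 to 2.59 against 5.09 to 6.96 CPM, with Ms4a1 at 0 in both and Cd79b at 1.39 (SE 0.39, adjusted p = 0.0124). T cell markers summed to 0.674 to 1.35 against 2.27 to 3.27 CPM, with Cd3d at 0 in both and Cd4 at 1.31 (SE 0.45, adjusted p = 0.0321). Granulocyte precursor markers summed to 22.5 to 39.3 against 17.4 to 24.6 CPM, with Camp at -1.54 (SE 0.38, adjusted p = 0.00520). Macrophage markers summed to 49400 to 50600 against 34300 to 40000 CPM, with Mertk called higher at 1.23 (SE 0.28) and Cd14 called lower at -0.93 (SE 0.19). The part of these markers in the differences was not tested.

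LPS gave the largest median change of the comparisons made here. In Prep+/- cells 55 of the 56 were lower in M1 than in M0 and 1, Pttg1, was higher, where 20.9% of tested genes were lower and 16.7% higher. The median log2 fold change was -3.45, beside -0.03 over all tested genes. The count was 55 whichever library was left out. All libraries were apart, 55 downward and 1 upward, as for 34.1% and 31.2% of tested genes.

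The largest fall was that of Cenpf, a large kinetochore and centromere protein, from 73.8, 71.1 and 80.6 CPM to 2.48, 1.69 and 1.76 (log2 fold change -5.24, SE 0.40, adjusted p = 1.92e-08). Ccnb2 fell from 148, 140 and 133 to 3.87, 3.82 and 3.94 CPM (log2 fold change -5.17, SE 0.37, adjusted p = 9.56e-09), and Cdc20 from 123, 111 and 107 to 3.44, 3.43 and 4.54 CPM (log2 fold change -4.90, SE 0.32, adjusted p = 4.20e-09). These are falls of over 16-fold, which Cenpa, Plk1, Kif20a and Kif23 also passed, and 38 genes fell over 8-fold. Cdk1 fell less, to 27.4, 34.6 and 35.6 CPM (log2 fold change -2.70, SE 0.25, adjusted p = 1.44e-07), as did Mki67, to 60.5, 52.0 and 49.4 CPM (log2 fold change -3.24, SE 0.29, adjusted p = 1.01e-07). Pttg1 went the other way, from 33.9, 29.7 and 22 to 48.5, 66.5 and 65.2 CPM (log2 fold change 1.07, SE 0.23, adjusted p = 0.00102). Bub3 had the smallest fall (log2 fold change -0.71, SE 0.13, adjusted p = 1.64e-04). Markers of other cells moved with LPS in Prep+/- cells. Progenitor markers went from 10.3 to 15.9 CPM in M0 to 0.969 to 1.52 CPM in M1, with Flt3 at 0 in M1 and Cd34 at a log2 fold change of -3.66 (SE 0.29, adjusted p = 3.18e-08). Granulocyte precursor markers went from 17.3 to 22.3 CPM to 22.5 to 39.3 CPM, with Camp at 1.84 (SE 0.38, adjusted p = 6.17e-04). The 5 stromal markers went from 12.2 to 15.6 CPM, with Lum at 0, to 18.4 to 20.5 CPM, with Dcn at 3.67 (SE 0.61, adjusted p = 9.41e-05). In all 3 lists the M0 and M1 sums did not overlap. Macrophage markers went from 20300 to 23700 CPM to 49400 to 50600 CPM. The part of these in the change was not tested.

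In Prep-/- cells 51 genes were lower in M1 than in M0 and 1, again Pttg1, was higher, where 21.0% of tested genes were lower and 20.9% higher. The median log2 fold change was -2.51, beside 0.00 over all tested genes. All libraries were apart for 51 genes downward and 1 upward, as for 28.0% and 30.5% of tested genes, and Plk4, Incenp, Tpx2 and Mybl2 overlapped. Ccnb2 fell most, from 47.5, 102 and 106 to 1.04, 2.77 and 2.39 CPM (log2 fold change -5.36, SE 0.38, adjusted p = 1.04e-08), followed by Cdc20, from 31.7, 62.1 and 58.4 to 1.40, 2.12 and 2.49 CPM (log2 fold change -4.66, SE 0.33, adjusted p = 1.04e-08), and Ube2c, from 42.1, 90.6 and 124 to 2.18, 3.58 and 4.58 CPM (log2 fold change -4.63, SE 0.35, adjusted p = 2.18e-08). Pttg1 rose from 39.2, 25 and 51.9 to 79.9, 58.8 and 74.4 CPM (log2 fold change 0.88, SE 0.23, adjusted p = 0.00410). Mybl2, which was already low in M0, stood at 1.75, 2.51 and 3.92 and 1.40, 2.72 and 3.0 CPM (log2 fold change -0.20, SE 0.36, adjusted p = 0.659). Plk4 (log2 fold change 0.19, SE 0.22, adjusted p = 0.473) and Incenp (log2 fold change -0.40, SE 0.15, adjusted p = 0.0272) were not called either, and Bub3 passed the p but not the fold (log2 fold change -0.57, SE 0.13, adjusted p = 0.00103). Bub3 was called in 8 of 14 alternatives, among them a replicate block on these groups alone (log2 fold change -0.59, adjusted p = 0.0148). Falls of over 16-fold numbered 8, those of Ccnb2, Cdc20, Ube2c, Cenpf, Kif20a, Cenpa, Kif23 and Plk1, beside 7 in Prep+/-, and falls of over 8-fold numbered 14, beside 38. Progenitor markers went from 1.66 to 2.21 CPM in Prep-/- M0 to 0.208 to 0.509 CPM in Prep-/- M1, with Flt3 at 0 in M1 and Cd34 at a log2 fold change of -2.78 (SE 0.39, adjusted p = 1.30e-05). Granulocyte precursor markers went from 36.1 to 84.6 CPM to 17.4 to 24.6 CPM, with 4 of 4 tested markers lower, Mpo, Ltf, Ngp and Camp. The sums of both lists were apart between the states, as were those of the T cell and B cell markers. T cell markers went from 7.84 to 29.6 CPM to 2.27 to 3.27 CPM, with Cd3d at 0 in both and Cd4 at -2.65 (SE 0.40, adjusted p = 2.72e-05). Stromal markers went from 0.323 to 15.5 CPM, with Lum at 0, to 5.65 to 17.3 CPM, with Dcn at 4.46 (SE 0.64, adjusted p = 1.83e-05), and B cell markers from 8.66 to 11.5 CPM to 5.09 to 6.96 CPM. Macrophage markers stood at 31400 to 49500 and 34300 to 40000 CPM, and they and the stromal markers overlapped. The part of these in the change was not tested.

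**Figure D5:**
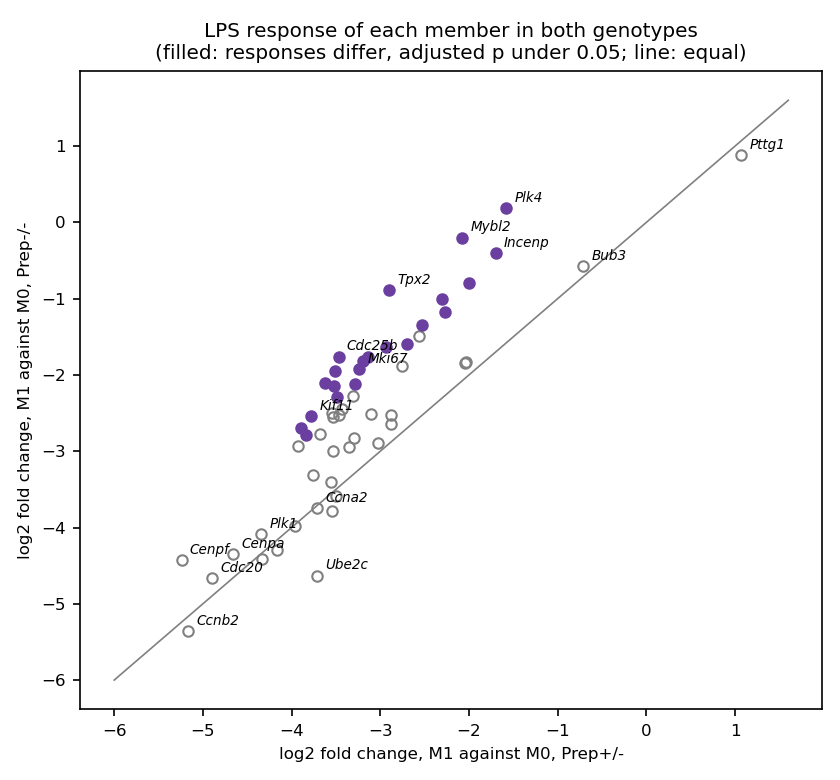
Log2 fold change of M1 against M0 in Prep-/- (y axis) against that in Prep+/- (x axis) for each of the 56 genes; filled points are genes whose responses differ at an adjusted p under 0.05, and the line marks equal responses. The filled points, Tpx2, Mybl2 and Plk4 furthest, lie above the line, while Ccnb2, Cdc20 and Ccna2 lie near it.

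The difference between the genotype effects in M1 and M0, which equals the difference between the LPS responses, was called for 22 genes, all higher (log2 differences above 0, that is, a smaller fall after LPS in Prep-/-), where 13.7% of tested genes were called higher and 10.9% lower. None was called lower, and for that count edgeR at an unadjusted p under 0.05 and DESeq2 also gave 0. The median difference was 0.96, beside 0.04 over all tested genes, and 47 of the 56 genes had the larger fall in Prep+/-. Tpx2 differed most, by a log2 value of 2.01 (SE 0.34, adjusted p = 7.25e-04), then Mybl2, by 1.88 (SE 0.47, adjusted p = 0.00951), and Plk4, by 1.77 (SE 0.30, adjusted p = 7.47e-04). Of the representatives, Cdc25b (1.70, SE 0.37, adjusted p = 0.00388), Aurkb (1.37, SE 0.34, adjusted p = 0.00837), Mki67 (1.32, SE 0.38, adjusted p = 0.0180), Kif11 (1.24, SE 0.41, adjusted p = 0.0359) and Cdk1 (1.10, SE 0.33, adjusted p = 0.0244) were called too. The Cdc25b and Aurkb calls held in all 19 alternatives. The Mki67 call was lost when replicate 3 of Prep+/- M1 or replicate 2 of Prep-/- M1 was left out, and that of Cdk1 without replicate 1 or 2 of Prep+/- M1 or replicate 2 or 3 of Prep-/- M1. The Kif11 call was lost without Prep+/- M0 replicate 2 or 3, Prep+/- M1 replicate 2 or 3 or Prep-/- M1 replicate 1, 2 or 3. By role, 6 of 12 kinesins and spindle proteins, 5 of 7 chromosome structure genes and 0 of 3 cytokinesis genes were called. Smc2, Ncaph and Mybl2 were the called genes that were also lower in Prep-/- M1. The count of 22 was 11 without Prep+/- M1 replicate 2, 11 without Prep-/- M1 replicate 2, 12 without Prep+/- M1 replicate 3, 13 without Prep+/- M0 replicate 3 and 14 without Prep-/- M1 replicate 3.

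Against M2, the genotype effect in M2 was lower than that in M1 for 13 genes and higher for none, where 7.94% of tested genes were called lower and 5.90% higher. For the count of 0 higher, edgeR at an unadjusted p under 0.05 and DESeq2 also gave 0. Cdc25b (-1.70, SE 0.37, adjusted p = 0.00687), Tpx2 (-1.66, SE 0.34, adjusted p = 0.00520) and Aurkb (-1.57, SE 0.34, adjusted p = 0.00702) differed most on the log2 scale. The count of 13 was 23 without Prep-/- M2 replicate 2. It was 6 without any 1 of Prep+/- M1 replicates 1, 2 and 3, Prep+/- M2 replicate 1, Prep-/- M1 replicate 2 and Prep-/- M2 replicate 1. It was 7 without any 1 of Prep+/- M2 replicates 2 and 3 and Prep-/- M1 replicates 1 and 3.

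IL-4 and IL-13 moved these genes far less than LPS. In Prep+/- cells 1 gene, Cenpe, was lower in M2 than in M0 and none was higher, where 6.77% of tested genes were lower and 6.09% higher. Yet all libraries were apart downward for 52 genes, as for 23.3% of tested genes, and the median log2 fold change was -0.49, beside -0.01 over all tested genes. Cenpe, the kinesin of the kinetochore, stood at 99.1, 101 and 104 CPM in M0 and 54.5, 59.6 and 51.8 in M2 (log2 fold change -0.87, SE 0.27, adjusted p = 0.0301), and its call was lost whichever library was left out. Mki67 (log2 fold change -0.54, SE 0.26, adjusted p = 0.175), Top2a (log2 fold change -0.76, SE 0.30, adjusted p = 0.0952) and Cdk1 (log2 fold change -0.57, SE 0.23, adjusted p = 0.0988) had libraries apart and were not called. At an unadjusted p under 0.05 edgeR gave 18 lower and 0 higher, DESeq2 gave 7 lower and 0 higher, and a fit of these groups alone gave 13 lower. That edgeR fit called Top2a (log2 fold change -0.75, adjusted p = 1.12e-04). The main tests estimated spread over all 6 groups. Median coefficients of variation were 6.73% and 5.13% in Prep+/- M0 and M2, and 41.1% and 35.3% in Prep-/- M0 and M2. The count of 1 was 0 without Prep+/- M0 replicate 2 or 3 or Prep+/- M2 replicate 1 or 3.

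In Prep-/- cells 9 genes were lower in M2 than in M0 and none was higher, where 15.5% of tested genes were lower and 14.7% higher. The 9 were Cdk1, Ube2c, Pttg1, Espl1, Birc5, Cenpe, Ndc80, Nusap1 and Ncaph, and the median log2 fold change was -0.45, beside -0.02 over all tested genes. For the count of 0 higher, edgeR at an unadjusted p under 0.05 and DESeq2 also gave 0. Pttg1 stood at 39.2, 25 and 51.9 and 20.5, 21.9 and 17.7 CPM (log2 fold change -0.95, SE 0.24, adjusted p = 0.00382) and was the sole gene with libraries apart, where 22% of tested genes were. Ube2c stood at 42.1, 90.6 and 124 and 38.7, 59.3 and 36.2 CPM (log2 fold change -0.94, SE 0.29, adjusted p = 0.0156), and Birc5 at 47.2, 85.0 and 187 and 52.6, 76.9 and 37.7 CPM (log2 fold change -0.93, SE 0.37, adjusted p = 0.0495). Without Prep-/- M0 replicate 3 the log2 fold change of Birc5 was -0.26 (adjusted p = 0.499) and that of Ube2c -0.58 (adjusted p = 0.0980). Both calls were also lost without Prep-/- M2 replicate 1 or 3, and over all 14 alternatives they were lost in 8 for Birc5, 6 for Ube2c and 2 for Pttg1. The count of 9 was 37 without Prep-/- M0 replicate 1 and 32 without Prep-/- M2 replicate 2, the libraries that stood apart from their groups, and 3 without Prep-/- M0 replicate 2, 2 without Prep-/- M0 replicate 3, 1 without Prep-/- M2 replicate 1 and 1 without Prep-/- M2 replicate 3. Progenitor markers went from 1.66 to 2.21 CPM in M0 to 0.704 to 1.63 CPM in M2, with Cd34 at -1.51. Granulocyte precursor markers went from 36.1 to 84.6 CPM to 14.4 to 22.6 CPM, with 3 of 4 tested called lower. T cell markers went from 7.84 to 29.6 CPM to 1.55 to 2.46 CPM, with Cd4 at -2.99. Macrophage markers went from 31400 to 49500 CPM to 15300 to 20800 CPM, with 7 of 12 called lower and 2 higher. The part of these in the change was not tested.

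The differences were also read by the promoter element. In M0 the 36 genes with a CHR had a median log2 fold change of -1.52 and the 11 without it of -1.71, and in M2 the medians were -1.50 and -1.57. After LPS in Prep+/- the medians were -3.50 with the CHR and -2.53 without it, and in Prep-/- they were -2.54 and -1.84. The difference between the responses was called higher for 11 of the 36 genes with a CHR and for 7 of the 11 without it. Of all tested genes 13.7% were called higher and 10.9% lower. The full count of 22 ran from 11 to 26 as each library was left out. These are descriptions of the 47 genes with a window.

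Other cell cycle genes were read beside the 56. In M0, where 17.2% of tested genes were lower and 15.4% higher, 66 of 72 other mitosis genes were lower in Prep-/- and none higher, with a median log2 fold change of -1.47, led by Kntc1, a kinetochore protein, at -2.76 (SE 0.39) and Pbk, a mitotic kinase, at -2.62 (SE 0.44). Of 42 DNA replication genes 40 were lower, with a median of -1.93, Rrm2, the ribonucleotide reductase subunit, at -3.29 (SE 0.47) and Mcm2, a subunit of the replicative helicase, at -3.18 (SE 0.29). Of 27 G1 cyclins, kinases and inhibitors 16 were lower and 1 higher, with Ccne2, cyclin E2, at -4.42 (SE 0.55) and Ccnd1, cyclin D1, at -4.16 (SE 0.67). The other 10 of these 27 were not called. Of 23 anaphase-promoting complex and cohesin genes 9 were lower, and of 10 DREAM and CHR-binding factors 4 were lower, with Tfdp1, the E2F partner, at -1.64 (SE 0.18) and Lin54, the CHR-binding subunit of MuvB, at -1.30 (SE 0.24).

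The same lists were read after LPS. In Prep+/- cells, where 20.9% of tested genes were lower and 16.7% higher, 70 of 72 other mitosis genes and 38 of 42 DNA replication genes were lower in M1 than in M0, with medians of -2.86 and -1.26. In Prep-/- cells, where 21.0% of tested genes were lower and 20.9% higher, 62 of the other mitosis genes were lower and 1 higher, with a median of -1.87. Of the 42 DNA replication genes 10 were lower, 2 were higher and 30 were not called, with a median of -0.27. Pcna, the replication clamp, was higher by a log2 value of 1.2. Of the 27 G1 cyclins, kinases and inhibitors, 9 were higher and 5 lower in Prep-/- M1, beside 1 and 14 in Prep+/- M1. Among these G1 genes Ccnd2, cyclin D2, was higher by 4.14 in Prep-/-. Between the genotypes in M1, where 10.2% of tested genes were lower and 12.3% higher, 19 of the other mitosis genes and 29 of the DNA replication genes were lower and none of either was higher. In M2, where 9.82% of tested genes were lower and 6.37% higher, 69 and 38 were lower and none higher. The promoter windows of the DNA replication genes held a CHR in 18.2% and an E2F site in 39.4% of 33, and those of the other mitosis genes held a CHR in 60.3% of 58.

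Outside the 56, the genes whose log2 CPM over the 18 libraries was most like the mean of the members, among genes with a mean of at least 5 CPM, were Cenpn, with a Pearson r of 0.996, Ankle1 (0.994), Knl1 (0.993), Kifc1 (0.993), Prr11 (0.991), Depdc1b (0.991), Spag5 (0.991), Rnf26 (0.991), Cep55 (0.990) and Parpbp (0.989). Of the 50 genes most alike, 31 were on the list of other mitosis genes, 1 was on the list of G1 genes and 18 were on none of the lists. The r values describe libraries that share 6 groups and carry no test.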

How the data were processed

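RNA-seq was analysed in 18 BMDM libraries, 3 in each of 6 groups. Reads were trimmed with Trimmomatic 0.36 and aligned with HISAT2 2.2.1.0 to GRCm39, and StringTie was used for the count table, per the study's methods and the submitters' processing notes. The authors deposited raw counts per gene symbol, not normalized, with replicates not pooled. The annotation release, the strand setting and the treatment of multi-mapped reads were not given in the sources used here. Reads of similar copies and of overlapping genes may therefore be shared between rows. Library totals were 19068237 to 22598279 counts, and the members' counts were lowest in M1.

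Counts were analysed with edgeR 4.0.16 in R 4.3.3: filterByExpr left 12021 of 16314 genes, TMM factors set the library sizes, and a quasi-likelihood model of all 6 groups gave log2 fold changes, SEs and p-values, adjusted by Benjamini-Hochberg over all tested genes. Calls needed a fold change above 1.5 together with an adjusted p below 0.05, and for a difference between effects that p alone. CPM are TMM-scaled. Within groups, no pair of libraries was close enough in counts to be a repeat deposit. Pairs across groups were not compared in this way. DESeq2 1.42.0, other size factors, other filters, a fold change test, fits of the compared groups alone, replicate blocks and each library left out were alternatives. The procedure was tested on simulated data. Gene positions and exon lengths came from GENCODE vM39 and promoter sequences from RefSeq, on GRCm38.p6.

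The members and the other lists were chosen with earlier results of these data known. Named were 16 textbook representatives of the roles, the 3 largest called rises and falls in each comparison, members called against the main direction, the 10 most alike genes outside the list and up to 4 genes of each other list with the largest called change. Other members named with values were chosen after their values were seen. Replicate numbers were tested for pairing by the correlation of same-numbered libraries' deviations from their group means. All 3 correlations were over 0.1 for the genotypes in M2 (0.249, 0.255 and 0.462) and for M1 against M0 in Prep-/- (0.201, 0.169 and 0.259), and not in the other comparisons.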

Additional observations from a re-analysis of the deposited data

Results flagged for a closer look

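The genotype difference itself differed between states. Between M1 and M0 the test of the difference called 22 of the 56 genes, all with a higher value in M1. Of all tested genes 13.7% were called higher and 10.9% lower. The count ran from 11 to 26 as each library was left out. Tpx2 differed by 2.01 on the log2 scale, Mybl2 by 1.88 and Plk4 by 1.77. In Prep-/- cells the M0 and M1 libraries of Tpx2, Mybl2 and Plk4 overlapped. Between M2 and M1 the test called 13 genes, all with a lower value in M2, where 7.94% of tested genes were called lower and 5.90% higher. This count ran from 6 to 23 as each library was left out. Cdc25b differed by -1.70, Tpx2 by -1.66 and Aurkb by -1.57. No cause was tested.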

How the results depend on the processing

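Directions of the members' medians were the same under every alternative, except for the difference between M2 and M0 effects, which ran from -0.28 to 0.23. Leaving out each library gave, for genes lower and higher in Prep-/-, 50 to 54 and 0 to 1 in M0, 8 to 24 and 1 in M1, and 45 to 53 and 0 in M2. For M1 against M0 it gave 55 lower and 1 higher in Prep+/-, and 51 to 52 and 1 in Prep-/-. For M2 against M0 it gave 0 to 1 lower in Prep+/-, and 1 to 37 lower and 0 to 1 higher in Prep-/-. For differences between effects it gave 11 to 26 higher and 0 to 1 lower (M1 and M0), 0 to 1 in each direction (M2 and M0) and 6 to 23 lower (M2 and M1). Between genotypes, the alternatives other than left-out libraries gave 44 to 53 lower genes in M0, 5 to 33 in M1 and 38 to 52 in M2. The test against a fold change of 1.5 gave 5 lower and 0 higher between genotypes in M1, 0 lower in M2 against M0 in either genotype, and 0 higher in M1 against M0 in Prep-/-. Genes lower in M2 against M0 in Prep+/- numbered 2 with no fold criterion, 3 with DESeq2-type size factors, 2 with at least 10 counts in every library, 7 with DESeq2, 13 with only the groups compared, 5 with a replicate block in all libraries and 12 with a replicate block in only the groups compared. In Prep-/- they numbered 14 with DESeq2, 1 with only the groups compared and 3 with that fit and a replicate block. The difference between M2 and M1 effects gave 23 lower with only the groups compared and 26 with a replicate block added, and that between M2 and M0 gave 1 lower with DESeq2. The cause was not tested.

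Where replicate numbers paired the libraries, the block gave 51 or 52 genes lower in M2 and 51 or 52 lower in M1 against M0 in Prep-/- and moved neither count by over 1.5 times. On the compared groups alone it gained the calls of Cdc25b in M2 and Bub3 in M1 against M0. Signs turned for uncalled genes alone. With a replicate block Hmmr between genotypes in M1 was -0.01. Left-out libraries gave Hmmr -0.13 to 0.28, Plk4 -0.13 to 0.03 in M1, Cenpa -0.06 to 0.47 in M0 and -0.37 to 0.08 in M2, and, for M1 against M0 in Prep-/-, Mybl2 -0.45 to 0.12 and Plk4 -0.04 to 0.41. Over 123 single-gene values, recomputed 1792 times in all, 1626 kept direction and side of the threshold, 125 lost the call, 30 gained it and 11 changed sign. A promoter window of 150 bases before to 50 after the start gave a CHR in 76.6% and a CCAAT box in 68.1% of members' windows. The lowest count of a member was 8, in Prep-/- M1.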
